A study of Mus musculus with 19 samples.

Results

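The microRNA (miRNA) miR-139-5p was followed in mouse liver across 3 groups given dibenz[a,h]anthracene (DB[a,h]A) and a control group. It was identified in the array files by its listed name, mmu-miR-139-5p, and was 1 of 696 miRNAs and held 3 of 1937 probes on the array. It was selected on its measured differences from the controls at each dose in these same arrays, so its levels and its differences from control are given with their spread and without a test. The other strand of the same hairpin has its own probes and was tested. The doses were also compared with each other, but each such contrast is the difference of 2 of the values behind the choice, so those tests are not independent of it.

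All animals were male MutaMouse mice of transgenic strain 40.6, aged 10 weeks, a strain that carries a reporter gene for scoring mutations in its tissues. Mice were dosed by gavage once a day for 28 days, and liver was collected 3 days after the final dose. Controls received olive oil alone (5 arrays), and the other groups received DB[a,h]A in olive oil at 6.25 mg/kg/day (low dose, 5 arrays), 12.5 mg/kg/day (middle dose, 4 arrays) or 25 mg/kg/day (high dose, 5 arrays). The labels give 5 animals to each dose, of which 4 at the middle dose were analysed here. Each of the 19 one-colour arrays was hybridized with 100 ng of labelled liver RNA from 1 mouse. Bulk liver RNA holds all cell types of the organ, so a change in the number of cells of a type and a change in RNA per cell cannot be told apart.

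A miRNA is cut from a hairpin transcript, and 1 strand of the resulting duplex is loaded into an Argonaute protein, where it pairs with messenger RNAs mainly through its seed and lowers their translation and stability. miR-139-5p comes from the 5′ arm of a hairpin that lies inside Pde2a, the gene of a cyclic nucleotide phosphodiesterase. It has been studied as a miRNA that is lower in liver tumours than in surrounding liver, with Rock2, Igf1r and Fos among its described targets. DB[a,h]A is a polycyclic aromatic hydrocarbon that activates the aryl hydrocarbon receptor and is metabolized to products that bind DNA.

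The sequences of the hairpin and of its mature strands are shown because the array reads both strands with separate probes. They were taken from RefSeq on GRCm38.p6, plus strand. In the hairpin (chr7:101475376-101475443) the capitals mark both mature strands. In the mature strands, at chr7:101475382-101475403 and chr7:101475418-101475439, the capitals mark the seed, bases 2 to 8.
mir-139 hairpin: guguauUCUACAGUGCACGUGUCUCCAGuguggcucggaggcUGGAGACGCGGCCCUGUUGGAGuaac
miR-139-5p: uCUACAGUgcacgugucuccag
miR-139-3p: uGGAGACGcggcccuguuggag

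The hairpin is 68 bases long and each mature strand 22 bases. Pde2a was the only gene whose span in the annotation table contained the hairpin, and the table gives gene spans without exons, so its place relative to the exons was not analysed here. The seed CUACAGU was carried by 1 of the 1679 mature mouse names in the table, miR-139-5p itself. Its last 6 bases, UACAGU, began within the first 3 bases of 5 names, 0.298% of the table, searched on the mature strand only. These were miR-101a-3p, miR-101b-3p, miR-144-3p and miR-582-5p beside miR-139-5p. The sequences of those measured on every array are given with UACAGU in capitals to show the shift, since it starts at base 1 in miR-101a-3p and miR-144-3p, at base 2 in miR-101b-3p and at base 3 in miR-139-5p.
miR-101a-3p: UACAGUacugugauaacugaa
miR-101b-3p: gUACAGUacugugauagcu
miR-144-3p: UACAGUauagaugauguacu

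A level is the log2 of a probe's intensity divided by the 75th percentile of its array, so 0 marks that percentile and a rise of 1 is a doubling. In the controls the level of miR-139-5p was -2.37, -2.40, -2.60, -2.44 and -2.53 in replicates 1, 10, 17, 19 and 22. At the low dose it was -1.84, -2.13, -1.87, -1.76 and -2.15 in replicates 3, 11, 12, 18 and 24. The control arrays formed the lowest group, and the lowest array of the low dose still lay above the highest control. At the middle dose the level was -1.85, -1.77, -1.99 and -2.06 in replicates 5, 6, 14 and 20. At the high dose it was -2.03, -2.08, -1.73, -1.96 and -1.99 in replicates 7, 8, 15, 16 and 23. All 14 dosed arrays lay above all 5 controls, while the 3 dosed groups overlapped each other throughout.

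**Figure D1:**
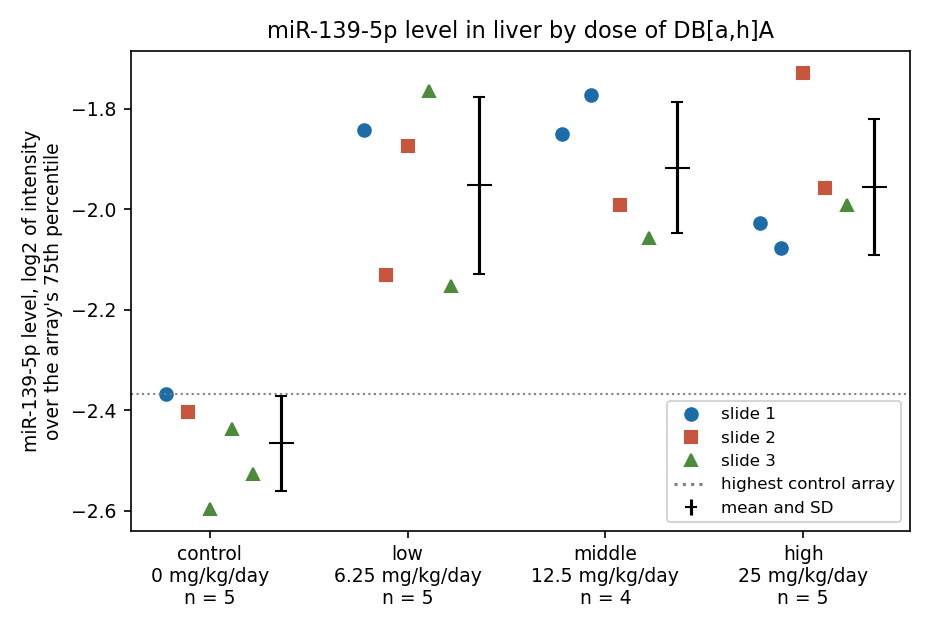
The vertical axis is the log2 level of miR-139-5p relative to the 75th percentile of each array, and the horizontal axis is the dose group, with 1 point per array, the marker giving the slide and the bars showing mean and SD. All 14 dosed arrays sit above the dotted line at the highest control (-2.37), and the dosed groups overlap.

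The level averaged -2.47 ± 0.09 over 5 control arrays, -1.95 ± 0.18 over 5 low-dose arrays, -1.92 ± 0.13 over 4 middle-dose arrays and -1.96 ± 0.14 over 5 high-dose arrays (mean ± SD, as for the group values that follow unless SE is written). With the slide as a block, the difference from control was 0.50 ± 0.09 (SE) at the low dose, 0.51 ± 0.10 (SE) at the middle dose and 0.47 ± 0.09 (SE) at the high dose. These correspond to 1.41-, 1.43- and 1.39-fold higher scaled intensity. Across the 208 miRNAs tested, every dosed array exceeded every control for 3.37% when only the low dose was considered and for 4.33% with either higher dose. For all 3 doses together the share was 0.962%, which was miR-139-5p and miR-34a, a target of p53. These values chose the miRNA and are given as a description.

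The 3 dosed groups were then compared with each other with limma, Benjamini-Hochberg adjusted over 208 miRNAs. Middle minus low was 0.02 (95% interval -0.19 to 0.22, adjusted p = 1). For high against low the difference was -0.02 (95% interval -0.21 to 0.17, adjusted p = 1), and for high against middle it was -0.04 (95% interval -0.24 to 0.16, adjusted p = 1). No pair of doses was distinguishable at this number of arrays, and the intervals reach changes of 1.16-fold higher at the middle and 1.12-fold higher at the high dose than at the low dose. The corresponding lower ends were 0.88- and 0.86-fold. In the same contrasts 0.481%, 0.481% and 0% of all miRNAs passed. The miRNA that passed against the low dose was miR-34a, higher by 1.59 at the middle (adjusted p = 0.0407) and 1.97 at the high dose (adjusted p = 0.00257). In order of mean level the groups ran control, high, low, middle, and only the step from control to the others was larger than the spread within groups.

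Of its 3 probes, the brightest gave the levels above. It is spotted 6 times per array, 114 of its 114 spots were well above background, and its spots within an array had a median coefficient of variation of 5.91% (2.24% to 9.72% over the arrays). The dimmer probe is spotted 7 times per array, with 133 of 133 spots well above background and a coefficient of variation of 4.90% to 17.6%. The last probe had 0 of 133 spots well above background and lay at the floor on every array, so it carried no information on dose. The 2 bright probes differed by 1.41 ± 0.08 on the log2 scale (SD over 19 arrays) and followed each other across arrays, with a Pearson r of 0.959 over 19 arrays after removal of slide means. They share arrays and scaling, which this value includes. On the dimmer probe the differences from control were 0.48, 0.51 and 0.47 at the low, middle and high dose, and all 14 dosed arrays again lay above all 5 controls. The 434 negative-control spots of an array had a 99th percentile between 3.89 and 12.0 intensity units, below the lowest miR-139-5p intensity of 35.8 on the brightest probe.

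Before any scaling, the groups were not separated. The intensity of the brightest probe was 42.5, 65.2, 73.3, 53.2 and 85.2 in control replicates 1, 10, 17, 19 and 22. At the low dose it was 61.2, 85.1, 91.3, 105 and 50.1 in replicates 3, 11, 12, 18 and 24. Only 2 low-dose arrays exceeded the highest control. At the middle dose the intensity was 48.7, 51.4, 51.7 and 73.0 in replicates 5, 6, 14 and 20. It was 53.5, 53.7, 52.8, 35.8 and 55.0 at the high dose in replicates 7, 8, 15, 16 and 23. No middle-dose or high-dose array exceeded the highest control, and high-dose replicate 16 was below all of them. The intensity averaged 63.9 ± 16.7 over controls, 78.6 ± 22.5 over low-dose, 56.2 ± 11.3 over middle-dose and 50.1 ± 8.05 over high-dose arrays. The dimmer probe gave the same order, at 24.5, 29.7, 21.6 and 18.8.

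**Figure D2:**
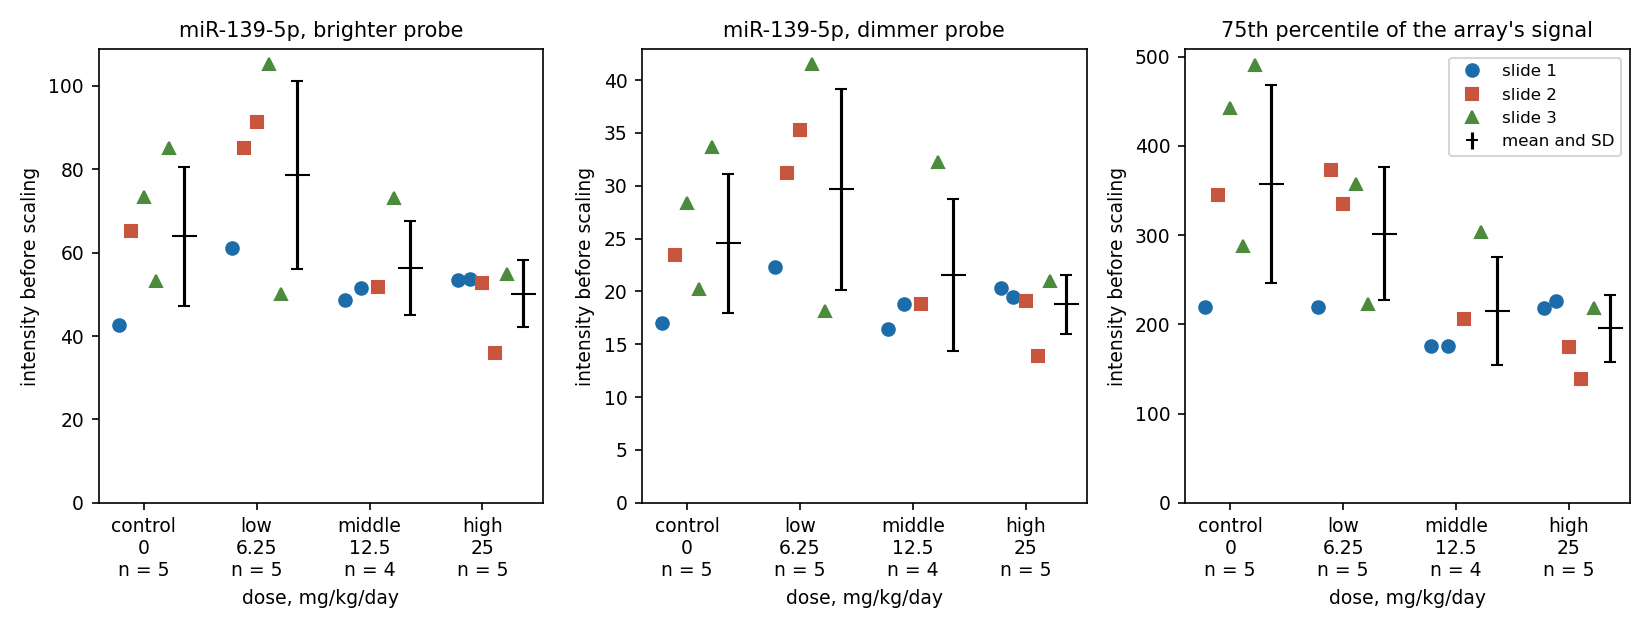
The vertical axes show intensity before scaling for both bright miR-139-5p probes and for the 75th percentile of the array, by dose group, with 1 point per array, the marker giving the slide and bars for mean and SD. Unscaled miR-139-5p overlaps between groups, with 2 low-dose arrays above the controls on the brighter probe, while the array percentile is lowest on average at the high dose.

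The signal of the whole array was on average lower at each higher dose. The 75th percentile by which each array was divided averaged 357 ± 111 over controls, 301 ± 74.6 over low-dose, 215 ± 60.7 over middle-dose and 195 ± 37.4 over high-dose arrays. The labelling spike-in, an RNA added at labelling, was below all controls on 5 of 5 high-dose arrays and 2 of 4 middle-dose arrays. Position on the slide also moved with dose, since controls lay 4 in the upper and 1 in the lower row, low dose 4 and 1, middle dose 1 and 3, and high dose 0 and 5. Among the 6 arrays whose 75th percentile was within 5% of that of control replicate 1, that control had a level of -2.37, low replicates 3 and 24 had -1.84 and -2.15, and high replicates 7, 8 and 23 had -2.03, -2.08 and -1.99. Only 1 control enters this set. Unscaled intensity of miR-139-5p minus the control mean of its slide was 18.7, 7.56 and 11.1 units on slide 1 (low, middle, high). In the same order it was 23.0, -13.5 and -20.9 units on slide 2 and 7.16, 2.45 and -15.6 units on slide 3. With the array percentile as a covariate the differences from control were 0.48, 0.45 and 0.40 at the low, middle and high dose.

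Within slides the direction was the same on each. Set against the control mean of its own slide, miR-139-5p was higher by 0.52, 0.56 and 0.31 on slide 1 (in the order low, middle, high), by 0.40, 0.41 and 0.56 on slide 2 and by 0.56, 0.46 and 0.53 on slide 3. Slides 1 and 2 held 1 control each, so these differences have no spread of their own there. In the upper row the 4 low-dose arrays averaged -1.90 against -2.45 in 4 controls, with no overlap. The lower row held control replicate 22 alone at -2.53, and its low-dose array was at -2.15, its 3 middle-dose arrays at -1.99 to -1.77 and its 5 high-dose arrays at -2.08 to -1.73. With slide and row both as blocks the differences were 0.50, 0.54 and 0.51.

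The difference of miR-139-5p depended on how the arrays were brought to a common scale. Without scaling it was 0.32, -0.06 and -0.23 at the low, middle and high dose, with 2 of 14 dosed arrays above the highest control. Dividing by the 75th percentile over all probes, most of them not above background, gave 0.42, 0.03 and 0.21, with 4 of 14. Quantile normalization gave 0.31, 0.22 and 0.30, with 10 of 14, and the labelling spike-ins gave 0.42, 0.31 and 0.54, with 7 of 14. Under the scanner software's summed gene signal the differences were 0.40, 0.37 and 0.42, and all 14 dosed arrays were above the highest control. Every such count, also on the dimmer probe and in the submitters' value table below, reads again the values that chose miR-139-5p. The matching share over all miRNAs was obtained only for the levels as first given, so these counts have no background beside them.

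The submitters' value table placed 13 of 14 dosed arrays above the controls. Across miRNAs it correlated with the log2 of the raw median signal at 0.986 to 0.995 per array, which does not show whether background was subtracted. Its miR-139-5p values averaged 5.69 ± 0.04 over controls, 5.82 ± 0.12 over low-dose, 5.80 ± 0.08 over middle-dose and 5.79 ± 0.03 over high-dose arrays. The array inside the control range was a low-dose array, at 5.65. Differences from control in that table were 0.14, 0.12 and 0.11. Its scaling between arrays, if any, was not given in the sources used here.

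**Figure D3:**
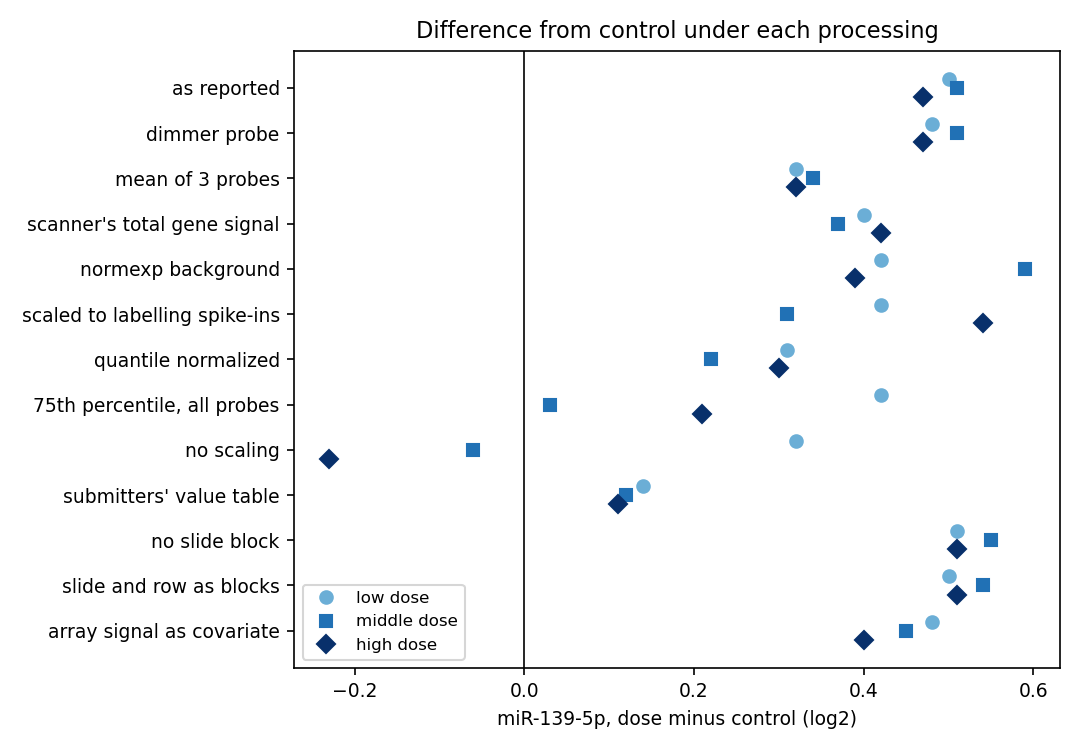
The horizontal axis is the log2 difference of miR-139-5p from control at the low, middle and high dose (marker shapes), and each line of the vertical axis is another scaling, background, probe choice or block. Values lie near 0.5 as reported, on the dimmer probe and with slide and row as blocks. They are 0.31, 0.22 and 0.30 with quantiles and 0.14, 0.12 and 0.11 in the submitters' value table (low, middle, high). The middle dose is at 0.03 with all probes, and the middle and high dose are below 0 without scaling (-0.06 and -0.23). The normexp setting adds a constant to every spot before scaling.

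The other strand of the hairpin, miR-139-3p, is read by a pair of probes of its own. On the brighter of them 50 of 190 spots were well above background, and on the dimmer 1 of 190. Its scaled level lay at the floor of -4.79 on all 19 arrays, so it gave no measurable difference from control at any dose. The scanner software called it detected on 4 of 5 controls, 4 of 5 low-dose, 1 of 4 middle-dose and 2 of 5 high-dose arrays. The unscaled intensity of its brighter probe averaged 9.02 ± 2.95 over controls, 7.74 ± 2.17 over low-dose, 5.35 ± 1.37 over middle-dose and 5.35 ± 1.85 over high-dose arrays, inside the span of the arrays' 99th percentiles of negative controls. Settings that gave it values off the floor differed in sign. In the summed gene signal its differences from control were 0.05 (adjusted p = 0.983), -0.62 (adjusted p = 0.359) and -0.30 (adjusted p = 0.696) at the low, middle and high dose with limma. With normexp they were 0.32 (adjusted p = 0.504), 0.68 (adjusted p = 0.110) and 0.35 (adjusted p = 0.471) with limma. The normexp setting adds a constant to every spot before division by the array percentile. For so dim a probe this alone gives a higher level where the percentile is lower, so its sign says nothing about miR-139-3p. No alternative called miR-139-3p changed. At this signal the arrays give no measure of whether it moved with miR-139-5p.

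The miRNAs whose level moved most like miR-139-5p over the 19 arrays were then ranked by Pearson r, among the 124 others that were tested and above the floor on every array. All of these values share arrays, scaling and dose groups, so r is a description. After removal of slide means the highest were miR-23b at 0.919, miR-92a at 0.865, miR-223 at 0.826, miR-652 at 0.802 and miR-15b at 0.782. The median over the 124 was 0.31, and 97 were above 0. miR-223 is a miRNA of myeloid cells, miR-92a belongs to the miR-17 cluster, and miR-23b is made with miR-27b and miR-24. miR-23b was first in all 19 rankings that left out 1 array, with r of 0.904 to 0.944, but in 1 of 8 other settings. miR-92a was first in 4 of them (all probes, no scaling, spike-ins and summed gene signal), miR-223 in 2 (quantiles and normexp) and miR-20a in the value table.

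Removing the dose means as well leaves variation among arrays of a group. With 1 array per mouse, differences between animals and between arrays cannot be told apart there. miR-23b at 0.771, miR-15a at 0.754, miR-92a at 0.653, let-7a at 0.635 and miR-30a* at 0.601 were then highest, against a median of 0.16. That median was 0.84 without scaling and 0.82 with spike-ins. miR-15a was first in this ranking without control replicate 17, low replicate 18 or control replicate 19 (0.795, 0.782 and 0.766). It stood apart, since with the dose groups included its r was -0.11. Its r was thus high with the dose means removed, pooled over all groups, and not with them included. miR-34a showed the reverse, at 0.675 with the dose groups included and -0.08 without them. Without dose means, r with miR-15a was 0.034 in the submitters' value table and -0.799 under normexp. These r values differed between settings, and the normexp setting adds a constant to every spot before division by the array percentile. For a dim probe that constant alone gives a higher level where the percentile is lower. Its part in the normexp values of r was not tested. Under normexp, r with miR-23b was -0.21 with the dose groups and -0.71 without them, while the median over the 124 was 0.873 and 0.896. With quantile normalization r with miR-23b was 0.554, and in the submitters' value table it was 0.442 over 115 miRNAs.

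**Figure D4:**
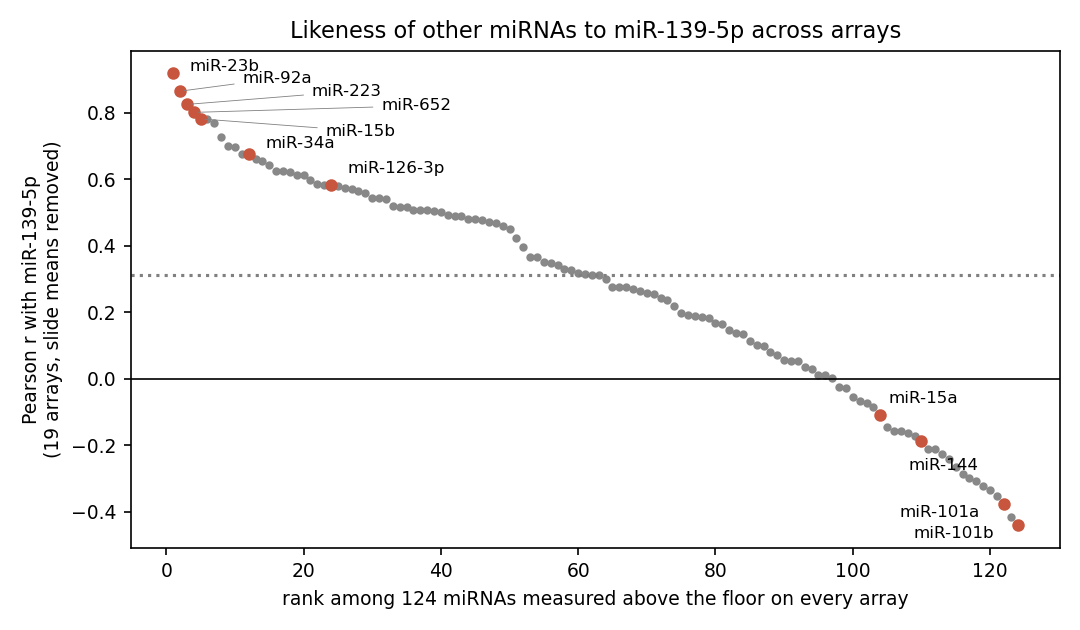
The vertical axis is Pearson r with miR-139-5p over 19 arrays after removal of slide means, and the horizontal axis is the rank among 124 miRNAs measured above the floor on every array, with the dotted line at the median. miR-23b (0.919) is at the top, and miR-101a and miR-101b, which hold UACAGU near their 5′ end, are at the bottom.

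miR-23b was above control by 0.20 on low-dose, 0.26 on middle-dose and 0.22 on high-dose arrays (limma adjusted p = 0.0402, 0.0237 and 0.0482), a smaller difference at each dose than that of miR-139-5p. Its mean level was 0.58 ± 0.13 in controls and 0.80 to 0.88 in the dosed groups. These calls share their control arrays with the miR-139-5p values. They were lost in 11, 3 and 14 of 19 fits that left out 1 array and in 14, 11 and 14 of 17 other settings. With slide and row as blocks all 3 were lost (adjusted p = 0.0541, 0.0839 and 0.336), and without scaling miR-23b differed by -0.32 (middle) and -0.48 (high).

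The core-sharing miRNAs, looked at after this ranking was seen, lay toward its other end while the dose groups were included. miR-101b had the lowest r of all 124, -0.44, miR-101a had -0.38 and miR-144 had -0.19, under the array's older names for the 3p strands printed above. With dose means removed, miR-101b was at 0.04 (rank 79) and miR-101a at 0.07 (rank 76), so neither was at that end, and miR-144 was at -0.22. The level of miR-101b averaged 0.99 ± 0.12 over controls and 0.87 ± 0.10, 0.71 ± 0.19 and 0.71 ± 0.19 over low-, middle- and high-dose arrays. Its differences from control were -0.11, -0.30 and -0.29 (limma adjusted p = 0.826, 0.111 and 0.103). miR-101a differed by -0.04, -0.27 and -0.22 (limma adjusted p = 1, 0.0811 and 0.103). Neither passed at any dose in this setting, and other settings called both lower. miR-101a passed at the middle dose with all probes, quantiles, summed gene signal and the value table (adjusted p = 0.0229, 0.00311, 0.0119 and 0.0275) and at the high dose without scaling and with quantiles (adjusted p = 0.0264 and 0.0483). miR-101b passed with all probes and summed gene signal at the middle dose (adjusted p = 0.0228 and 0.0139), and without scaling and with summed gene signal at the high dose (adjusted p = 0.0263 and 0.0418). Other miRNAs passed in these settings too. At the middle dose 36 passed with all probes and 7 in the value table, against 12 in the setting used above. At the high dose 70 passed without scaling, 16 with quantiles and 8 with summed gene signal, against 5.

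Marker lists of the cells in liver were read beside miR-139-5p. Each dose was compared with control by limma at an adjusted p under 0.05, which called 4.33%, 5.77% and 2.40% of all miRNAs at the low, middle and high dose, all higher. Of 6 endothelial miRNAs 5 were tested, and 2 rose at the low dose, miR-126-3p by 0.29 (adjusted p = 0.0268) and miR-10a by 0.21 (adjusted p = 0.0259). None of the 5 passed at the middle or high dose. Both calls were lost without control replicate 10 (adjusted p = 0.0705 and 0.137), in 6 and 7 of the 19 fits that left out 1 array and in 8 and 12 of 17 other settings. The list's median difference was 0.17, 0.11 and 0.08, against 0.07, 0.11 and 0.06 over all miRNAs tested. miR-126-3p, the main endothelial miRNA, differed by 0.16 (adjusted p = 0.191) and 0.08 (adjusted p = 0.518) at the middle and high dose, and its r with miR-139-5p was 0.582. The summed scaled intensity of the endothelial list was 2.59 to 3.48 in controls, 3.57 to 3.87 at the low dose, 3.24 to 3.65 at the middle dose and 3.09 to 3.47 at the high dose. It did not overlap the controls at the low dose and lay within their range at the high dose, where miR-139-5p was still above them. Its part in the difference of miR-139-5p was not tested.

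Of 7 leukocyte miRNAs 5 were tested and miR-223 alone rose, by 0.37 on low-dose, 0.48 on middle-dose and 0.39 on high-dose arrays (adjusted p = 0.0382, 0.0198 and 0.0482). These calls were lost in 9, 3 and 15 of 19 fits that left out 1 array and in 10, 10 and 12 of 17 other settings. With slide and row as blocks the middle and high calls were lost (adjusted p = 0.0839 and 0.427), and without scaling miR-223 differed by -0.09 (middle) and -0.32 (high). The list's median differences were 0.26, 0.17 and 0.15. Its summed intensity was 1.16 to 1.59 in controls, 1.60 to 1.69 at the low dose, 1.44 to 1.79 at the middle dose and 1.33 to 1.84 at the high dose, and its part was not tested. The defining liver miRNAs were high on every array, with a hepatocyte sum of 92.9 to 142, and 0 of 4 were called. No member was called in the bile duct list (5 tested), the stellate and smooth muscle list (4 tested), the erythroid list (2 tested) or the muscle list (2 tested). Their median differences at the low, middle and high dose were not small throughout. They were 0.41, 0.26 and 0.39 for bile duct, where miR-200c and miR-429 lay at the floor on all 5 controls. For the stellate and smooth muscle list they were 0.15, 0.34 and -0.04. The erythroid list had 0.07, -0.11 and -0.31, and the muscle list 0.23, 0.60 and -0.44. The muscle sum reached 4.58 at the low dose and 3.31 among controls, against a median of 0.14 in both groups.

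Of 16 other miRNAs described as lower in liver tumours, as miR-139-5p is, 14 were tested, and 1 rose at each dose, miR-223. The median difference of that list was 0.09, 0.07 and -0.05 at the low, middle and high dose, against 0.07, 0.11 and 0.06 over all tested. Of 13 miRNAs of the p53 response 7 were tested and miR-34a alone rose, at each dose, with list medians of 0.06, -0.01 and -0.05. The call at the low dose, a difference of 1.52, did not hold once control replicate 10 was left out (1.46, adjusted p = 0.0705) or in 10 of 17 other settings, down to 0.40 with the higher floor, 0.65 in the value table and 0.78 with normexp (adjusted p = 1, 0.152 and 0.113). miR-34a was higher at the middle and high than at the low dose, and the matching contrasts of miR-139-5p were 0.02 and -0.02.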

How the data were processed

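Per the file headers, spots were read with Agilent Feature Extraction 10.7.3.1, and the deposited intensity of each spot is background-subtracted and not scaled between arrays. The authors also deposited a value table in log2 units, with column medians of 5.04 to 5.06, by a method not given in the sources used here. Without control spots, 13920 of 14635 spots per array remained, and those marked as outliers on an array were also left out. Spots were averaged per probe, divided by the array's 75th percentile over 220 probes well above background on all arrays, raised to a floor of -4.79 (log2) and reduced to the brightest probe per miRNA. Of 696 miRNAs, 208 were detected on at least 4 arrays and tested with limma 3.58.1 in R 4.3.3, two-sided, with the slide as a fixed block. The fit was also run on simulated independent noise with a known change added. That run left out the dose-linked array signal and slide row, so it is no check on those. The files hold no mean signal, so the normexp alternative used the median signal, with a constant added to every spot before scaling. Each array is 1 mouse, and replicates of a group correlated at 0.961 to 0.997 across miRNAs, with 0 identical pairs. Alternatives covered scaling, background, probes, floor, filter, blocks and each array left out.

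Named miRNAs followed a rule, namely both strands of the hairpin, the 5 highest r in each ranking, miR-34a, miR-223, miR-23b, miR-126-3p, sharers of the seed and the brightest members of each list. miR-139-5p, the rule and the lists were chosen with earlier results of these data known. Sharers of the shorter core and miR-20a were chosen after values were seen. Of 3 erythroid names, 2 were on the array.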

Additional observations from a re-analysis of the deposited data

Results flagged for a closer look

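In 40 groups of 4 or 5 arrays examined, 3 had an array far from the others of its group, and chance gives about 1 in 20. The unscaled intensity of miR-139-5p was 73.0 in middle replicate 20, whose nearest neighbour was at 51.7. It was 35.8 in high replicate 16, whose nearest neighbour was at 52.8. The scaled level of miR-139-5p had no such array in any group. For miR-34a the level was -0.71 in low replicate 3, whose nearest neighbour was at -2.86.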

How the results depend on the processing

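Arrays number 4 or 5 per group, which limits the precision, and miR-139-3p lay too close to background to be followed. The differences of miR-139-5p from control that moved by more than the pooled SD within groups (0.14) were, at the low dose, 0.32 without scaling, 0.31 with quantile normalization, 0.32 with the mean of all probes and 0.14 in the value table. At the middle dose they were 0.03 with the percentile over all probes, -0.06 without scaling, 0.22 with quantiles, 0.31 with spike-ins, 0.34 with the mean of all probes, 0.37 with summed gene signal, 0.12 in the value table and 0.66 in the lower slide row alone, a setting added after seeing the data. At the high dose they were 0.21, -0.23, 0.30, 0.32 (mean of all probes) and 0.11 (value table). The mean of all probes takes in the probe that lay at the floor on every array and so held no difference. Leaving out each array gave 0.42 to 0.55, 0.48 to 0.55 and 0.42 to 0.51 at the low, middle and high dose.

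Middle minus low was -0.40 with all probes, -0.38 without scaling, -0.09 with quantiles, -0.12 with spike-ins, -0.03 with summed gene signal, -0.01 in the value table, -0.03 with the covariate and -0.02 with only the groups compared. High minus low was 0.11 with spike-ins, 0.02 with summed gene signal and 0.01 with slide and row. High minus middle was 0.18 with all probes, 0.08 with quantiles, 0.23 with spike-ins and 0.05 with summed gene signal. Left-out arrays gave -0.04 to 0.08, -0.09 to 0.04 and -0.10 to 0.01. The adjusted p was never under 0.0678 in these contrasts. For miR-139-3p the lowest was 0.110, and detection on all arrays left it untested.

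Listed miRNAs called numbered 4, 2 and 2 at the low, middle and high dose. At the low dose there were 0 with all probes, no scaling, quantiles, spike-ins, summed gene signal, normexp or no filter, 1 in the value table or without the slide block and 2 with only the groups compared. At the middle dose there were 13 with all probes, 4 with summed gene signal and 1 without scaling, with spike-ins, normexp, no filter, slide and row, the covariate or only the groups compared. At the high dose there were 18 without scaling, 4 with quantiles and 1 with all probes, spike-ins, a higher floor, normexp, no filter, slide and row, trend and robust, the covariate or only the groups compared. Left-out arrays gave 0 to 4, 1 to 4 and 1 to 3. Of all miRNAs, 9, 12 and 5 were called, and 0 to 13, 2 to 36 and 1 to 23 with an array left out, 0 to 9, 1 to 36 and 1 to 70 in other settings. Beside the 13 listed at the middle dose with all probes, 36 of all 208 tested were called. At the high dose the calls over all tested were 70 without scaling, 16 with quantiles and 25 with spike-ins. The low-dose settings with 0 listed calls also had 0 over all miRNAs. These counts take both directions together.

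With all probes and without scaling, miR-23b was -0.23 and -0.32 for the middle dose and -0.04 and -0.48 for the high dose, miR-126-3p was -0.33 and -0.42, then -0.19 and -0.63, and miR-223 was -0.01 and -0.09 for the middle and, without scaling, -0.32 for the high dose. miR-126-3p at the middle dose was -0.05 with spike-ins and -0.07 with normexp. Without 1 array miR-126-3p at the high dose ranged from -0.02 to 0.13 and miR-101a at the low dose from -0.07 to 0.01. Under normexp r was -0.210 and, without dose means, -0.709 for miR-23b, -0.799 for miR-15a and -0.718 for let-7a, which was -0.054 in the value table. With all probes, without scaling, with quantiles, spike-ins, summed gene signal and the value table miR-10a was -0.38, -0.46, -0.05, -0.10, -0.03 and -0.03 for the middle dose, and without scaling or with all probes -0.58 and -0.14 for the high dose. The cause of these shifts was not tested. No paired analysis was possible because the groups share no replicate numbers. The dimmest miR-139-5p probe and the other miR-139-3p probe lay at the floor on every array and gave no value.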
